A study of Mus musculus with 8 samples.

Results

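The far upper flank is the plus strand of chromosome 7 between the probes that start at 67300086 and at 67700706 (mouse genome build mm9), the outermost stretch of a tiled locus around Ube3a and Snrpn. Its members are the 5812 array probes on that strand whose lower coordinate falls in the span, of 53834 distinct probes on the array. They were selected by position, but the span was chosen with earlier results of these data known. It covers 400.8 kb, from 152.4 kb to 553 kb beyond the upper border of a deletion that runs from Snrpn into Ube3a. That border was placed at the step in plus-strand signal on these arrays. The median distance between neighbouring probe starts was 73 bases and the largest was 110 bases, so the span was covered without a gap. Of the members, 2169 come from the manufacturer's probe catalogue and 3643 were designed for this array. Each of the 5812 has a probe at the same position for the minus strand.

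The study measured cortical RNA on an Agilent array with probes for each strand, in C57BL/6 mice taken at postnatal day 0 (P0). Total RNA came from 1 mutant that inherited the Snrpn-Ube3a deletion from its mother (del s-u/+) and from 1 that inherited it from its father (del +/s-u). It also came from 2 double deletions, which carry the same deletion on the maternal chromosome and a deletion of the Snrpn promoter on the paternal one, and from 2 wild types. PolyA RNA was purified from the total RNA of both wild types. The titles and genotype labels of the double deletions name opposite promoter deletions (0.9 and 4.8), so these samples are called replicate 1 and replicate 2, and their spread holds any difference between the alleles. Every mutant carries its deletion in all cells, and neither single deletion has a replicate. The labels do not say how many animals each sample came from, so the p-values below reflect only how far these samples lie apart.

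Ube3a encodes an E3 ubiquitin ligase and is expressed mainly from the maternal chromosome in neurons. It is transcribed on the plus strand, towards Snrpn. Snrpn is transcribed from the paternal chromosome on the minus strand, and its long transcript runs on through Ube3a as the antisense RNA Ube3a-ATS. In mouse brain, additional upstream exons of Snrpn lie on the side of the gene where the far upper flank is, on the minus strand. In the order of genes in RefSeq, 7 pseudogenes (Gm18908, Gm7367, Gm18129, Gm30196, Gm3198, Gm10297 and Gm7394) and then the long non-coding RNA gene Gm29729 follow Snrpn and Snurf on that side. That table is of another build, so which of these genes lie inside the span was not determined.

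Signal is given in 2 ways. The raw value is the median red intensity of a spot on the scanner's linear scale, and the level is its log2 value after background correction, minus the 75th percentile, on the same array, of 3338 probes that lie over 100 kb outside the tiled stretch or on other chromosomes. An offset of 50 intensity units in the correction makes differences of dim probes smaller on the log2 scale than they are in the RNA. The total RNA arrays had a median red intensity of 98 to 161 over a local background of 36 to 38, and the polyA arrays had 45 and 44 over 34. Mean minus-strand level between Ube3a and Snrpn, which reads the paternal transcript, was 4.24 in the maternal deletion, 0.51 in the paternal deletion, 1.60 and 3.22 in the double deletions, and 4.50 and 4.39 in the wild types. All arrays lay on 1 slide, and the number of arrays limits the precision. In bulk cortex, a change in the number of cells of a type and a change in RNA per cell cannot be told apart. The array names no marker genes, so the tissue could not be checked against cell type markers.

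Plus-strand signal in the far upper flank was higher on every deletion array than on either wild type, and it was low to moderate in wild-type cortex. The median raw intensity over all 5812 members was 171.5 in the maternal deletion, 94 in the paternal deletion, 202.8 and 166 in the double deletions, and 68.8 and 65.5 in the wild types. Local background was 36 to 38 on these arrays, so the wild-type median lay close to it. The share of members that the scanner software marked as well above background was 98.6% in the maternal deletion, 93.7% in the paternal deletion, 99.1% and 98.1% in the double deletions, and 67.1% and 65.7% in the wild types. Of the members, 1801 were well above background on neither wild type.

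**Figure D1:**
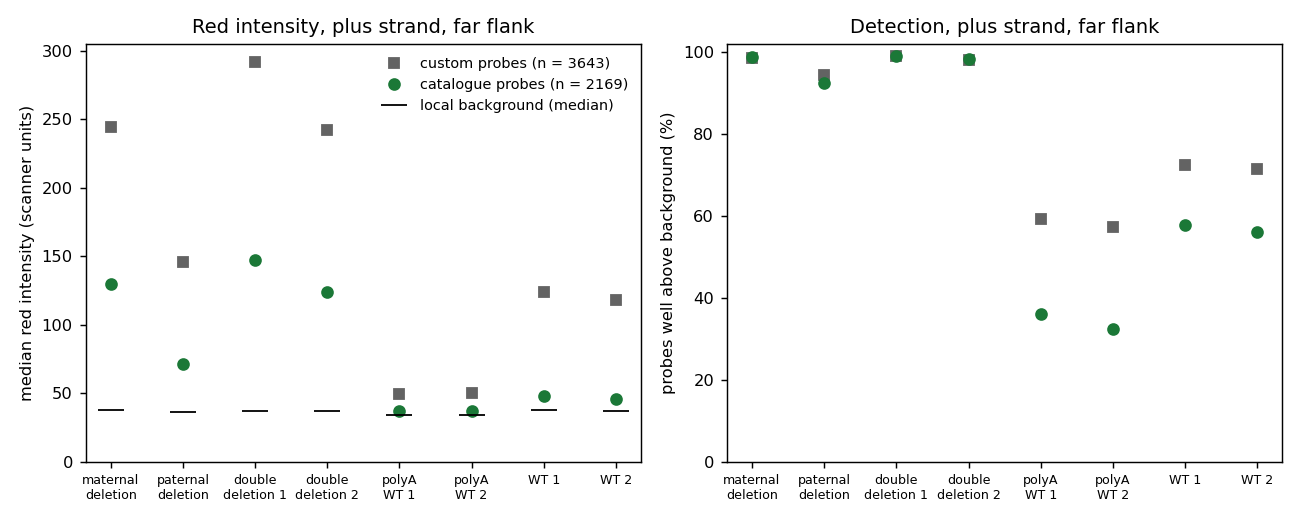
Median raw red intensity of the far upper flank members on each array, with the catalogue and the custom probes of the array shown apart and the local background for comparison. The 3 arrays that carry the deletion on the maternal chromosome stand highest, the paternal deletion lies between them and the wild types, and polyA RNA lies near background.

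The gain was present in both kinds of probe. Catalogue members had a median of 130 in the maternal deletion, 71 in the paternal deletion, 147 and 124 in the double deletions, and 48 and 46 in the wild types. Custom members, which include the brightest probes of the span, had 244, 146, 292 and 242 on the same deletion arrays and 124 and 118 in the wild types. Both kinds keep the same order of the arrays, with the paternal deletion next above the wild types.

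The mean level over the span was 1.19 in the maternal deletion, 0.92 in the paternal deletion, 1.29 and 1.24 in the double deletions, and 0.70 and 0.69 in the wild types. Against the wild-type mean, the double deletions differed by 0.57 (SE 0.05), the maternal deletion by 0.50 (SE 0.06) and the paternal deletion by 0.22 (SE 0.06), where the standard errors come from a limma fit with 1 spread for all total RNA groups. These values rest on the 5752 members that passed a filter, which asked that all arrays of some group mark the probe as well above background. Since 2049 of them passed through a deletion group and not through the wild types, the filter favours a gain, and 60 members failed it. With no filter the differences were 0.56, 0.49 and 0.22. With only the probes well above background on all 6 total RNA arrays they were 0.48, 0.37 and 0.17.

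The double deletion asks what RNA remains when the maternal span and the paternal promoter of Snrpn are both deleted. The span was divided into 40 bins of 10 kb, and limma was fitted to these together with all other bins of both strands, 354 in all. Plus-strand signal rose in the double deletions in 36 of the 40 bins and fell in none, at an adjusted p under 0.05 (Benjamini-Hochberg). The bins use the filtered members, of which 2049 passed only through a deletion group. The filter therefore favours a gain in the bins of every deletion group as well. Over all 354 bins, 15.5% were called higher and 3.95% lower in this comparison. Each of the 40 bins lay above both wild types in either replicate, as did 23.4% of all bins in replicate 1 and 46.6% in replicate 2. The median change over the 40 bins was 0.58, with a range of 0.11 to 0.92, and the median over all bins was -0.06. The members were chosen with earlier results of these data known, so the count describes the span and is not independent evidence of a gain. The count was 0 when arrays were scaled on all probes. Leaving out a wild type leaves 1 sample in that group, so only the change is given here. The mean change over the span was 0.57 without wild-type replicate 1 and 0.56 without wild-type replicate 2.

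The largest changes in the double deletions lay in 2 places. The bin at chr7:67330001-67340000 had levels of 0.94 and 0.75 in the double deletions, against -0.08 and -0.07 in the wild types. It rose by 0.92 (SE 0.09, adjusted p = 0.0188 in limma). Its median raw intensity was 233.5 and 173 in the double deletions and 43 and 42.5 in the wild types. The neighbouring bins at chr7:67440001-67450000 and chr7:67450001-67460000 rose by 0.86 and 0.88. In the second of these, levels were 0.63 and 0.49 in the double deletions and -0.32 and -0.33 in the wild types, and raw medians were 212.5 and 164.5 against 56 and 53.5. The replicates of each group lay closer to each other than to the other group in all of these bins.

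In 4 bins the double deletions did not pass the threshold. Differences there were 0.25 in the innermost bin (adjusted p = 0.0979 in limma), 0.18 at chr7:67420001-67430000 (adjusted p = 0.218), 0.11 at chr7:67660001-67670000 (adjusted p = 0.373) and 0.19 at chr7:67670001-67680000 (adjusted p = 0.131). At chr7:67660001-67670000 the levels were 0.11 and 0.22 in the double deletions, against 0.05 and 0.06 in the wild types. The double deletions still lay above both wild types in each of the 4 bins.

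The maternal deletion asks how much of this gain appears with a normal paternal chromosome. Its level lay above both wild types in all 40 bins, as it did in 22.3% of all 354 bins. Differences ranged from 0.06 to 0.93, with a median of 0.50, against a median of -0.05 over all bins. None of the 40 passed the threshold in limma, where 1 array faced the pooled spread (0% of all bins were called), and 35 had an unadjusted p under 0.05. The largest difference was 0.93 at chr7:67450001-67460000 (SE 0.09, adjusted p = 0.0576), with a level of 0.60 in the maternal deletion and -0.32 and -0.33 in the wild types. It was followed by 0.85 at chr7:67440001-67450000 and 0.71 at chr7:67520001-67530000, both with the same adjusted p. The smallest were 0.06 at chr7:67420001-67430000 (adjusted p = 0.982) and 0.11 each in the innermost bin and at chr7:67490001-67500000 (adjusted p = 0.905 and 0.836).

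The number of bins called for the maternal deletion differed between fits. With each double deletion as a group of its own, only the 2 wild types give the spread, and 35 of the 40 bins were called higher in the maternal deletion, against 15.3% of all bins. With catalogue probes alone, a choice made after the data had been seen, 30 of the 40 were called, against 11.5% of 304 bins. With custom probes alone none of the 40 was called in limma (0% of 354 bins).

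The paternal deletion, with 1 array, showed a smaller difference from wild type in the same direction. All 40 bins lay above both wild types, as did 31.9% of all bins. Differences ranged from 0.04 to 0.36 with a median of 0.24, against a median of -0.01 over all bins. None passed the threshold in limma (0% of all bins), 21 had an unadjusted p under 0.05, and 27 were called with each double deletion as a separate group, against 13% of all bins. The largest difference was 0.36 at chr7:67450001-67460000 (adjusted p = 0.137), with 0.03 in the paternal deletion and -0.32 and -0.33 in the wild types. Next came 0.35 at chr7:67440001-67450000 and 0.34 at chr7:67330001-67340000 (adjusted p = 0.149 and 0.18). The smallest were 0.04 at chr7:67660001-67670000, 0.07 at chr7:67410001-67420000 and 0.08 at chr7:67420001-67430000. The size of the paternal difference also depends on the scale, with 1.47 over the span when arrays were scaled on all probes and 0.22 when scaled on probes outside the locus. The scale on all probes includes the tiled locus. Minus-strand level between Ube3a and Snrpn was 0.51 in the paternal deletion and 4.50 and 4.39 in the wild types. The part of this in the value of 1.47 was not tested.

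Most single probes also read higher on the deletion arrays. All 4 deletion arrays exceeded both wild types at 60.9% of 5809 members with complete values, with no filter on dim probes. The share over the whole tiled locus was 13.4%. For the maternal deletion alone the share was 76.0% of members and 25.7% of the locus, for the paternal deletion 74.4% and 31.8%, and for the double deletions 80.4% and 83.0% of members against 29% and 38.2% of the locus. For bins, all 40 lay above both wild types on all 4 deletion arrays, which held for 16.9% of the 354 bins.

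**Figure D2:**
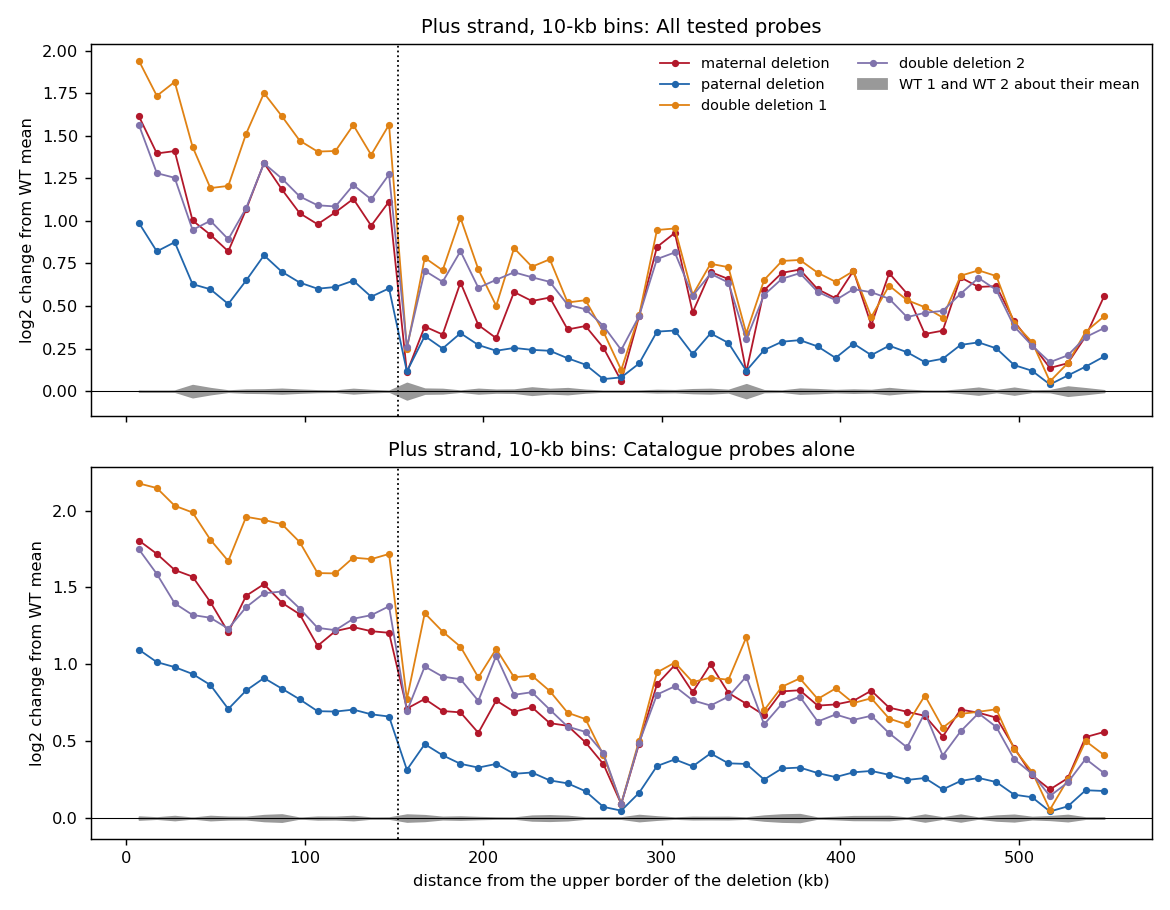
Difference in plus-strand level from the wild-type mean (log2) in 10-kb bins against the distance from the upper border of the deletion, with 1 line for each deletion array. All lines stay above 0 to the end of the tiled span, with low points at the 2 bins brightest in wild type and at 2 dimmer places.

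The members with the largest gain were dim in the wild types, which a choice by gain favours. Among members well above background on all 6 total RNA arrays, the probe at chr7:67509086-67509145 had raw intensities of 419 in the maternal deletion, 170.5 in the paternal deletion, 566.5 and 418.5 in the double deletions, and 44 and 43 in the wild types. Its mean level on the 4 deletion arrays exceeded that of the wild types by 2.42. The minus-strand probe at the same position had 305, 272, 190.5 and 313 on the deletion arrays in the same order, and 287 and 253 in the wild types, so its groups overlapped. The next largest gains were 2.38 at chr7:67316806-67316865 and 2.37 at chr7:67333115-67333170, a catalogue probe with 406, 149.5, 590.5 and 357 on the deletion arrays and 46 and 44 in the wild types. At chr7:67485986-67486045, chr7:67309436-67309495 and chr7:67633276-67633335 the gains were 2.05, 2.02 and 2.02. The last of these read 621 in the maternal deletion, 124 in the paternal deletion, 420 and 300 in the double deletions, and 53 and 56 in the wild types. These probes were picked for their gain, so the values are a description.

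Bins with high wild-type signal were looked at separately. The 5 bins with the highest wild-type level (2.24 to 5.83) differed from wild type by 0.11 to 0.39 in the maternal deletion, 0.12 to 0.24 in the paternal deletion, 0.25 to 0.50 in double deletion replicate 1 and 0.26 to 0.65 in replicate 2. The other 35 bins spanned wider ranges, with 0.06 to 0.93, 0.04 to 0.36, 0.06 to 1.02 and 0.17 to 0.82 on the same arrays. The brightest was the innermost bin of the span, which ends at 67310000. It had raw medians of 29709 in the maternal deletion, 29653 in the paternal deletion, 33397 and 31607 in the double deletions, and 31077 and 29493 in the wild types. The next, chr7:67490001-67500000, had 31915, 30991, 39478 and 36162 on those deletion arrays, and 35179 and 30516 in the wild types. Both were bright on the minus strand as well, where the wild-type level was 3.96 and 3.83. The 6 brightest members, at chr7:67493796-67493855, chr7:67302726-67302785, chr7:67677056-67677115, chr7:67462886-67462945, chr7:67536366-67536425 and chr7:67430216-67430275, were saturated on 3 to 6 of the total RNA arrays, so no fold change is given for them. In all, 81 members were saturated on at least 1 array. The catalogue probes of the brightest bin, 16 in number, had levels of 2.61 and 2.54 in the double deletions and 1.86 and 1.82 in the wild types, a rise of 0.73 (adjusted p = 0.0142 in limma).

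The span was set against the near flank, the 2420 plus-strand probes between the deletion border and its first probe. The near flank had mean levels of 1.41 in the maternal deletion, 0.95 in the paternal deletion, 1.81 and 1.45 in the double deletions, and 0.26 in both wild types. Its difference from wild type was 1.15 in the maternal deletion, 0.69 in the paternal deletion and 1.37 in the double deletions, so each was more than the difference in the far flank. Far minus near flank, the difference from wild type was -0.80 in the double deletions, -0.66 in the maternal deletion and -0.46 in the paternal deletion. The near flank begins at a border that was itself placed on the plus-strand signal of these arrays, so these values are a description with no test.

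The differences stepped down at the border of the flanks, where the outermost bin of the near flank is dim and the innermost bin of the span is its brightest. In the outermost 10 kb of the near flank the differences from wild type were 1.11 in the maternal deletion, 0.60 in the paternal deletion, and 1.56 and 1.27 in the double deletions. In the innermost bin of the span they were 0.11, 0.12, 0.25 and 0.26, and in the next bin they were 0.38, 0.32, 0.78 and 0.71. On catalogue probes alone, the double deletions differed from wild type by 0.73 in the first bin and by 1.16 in the next.

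Along the span the gain was then followed in wider windows. In the 4 consecutive windows of 100 kb, the double deletions were higher than wild type by 0.67, 0.58, 0.60 and 0.41, the maternal deletion by 0.44, 0.52, 0.60 and 0.42, and the paternal deletion by 0.25, 0.22, 0.25 and 0.18. The last window had the smallest value of the 4 in each of the 3 groups, although the maternal deletion had 0.60 in the window before it, its highest value, and nearly the same value in the first window as in the last. The median raw intensity of the last window was still 153 in the maternal deletion, 85 in the paternal deletion, 158 and 136 in the double deletions, and 65.5 and 63 in the wild types.

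**Figure D3:**
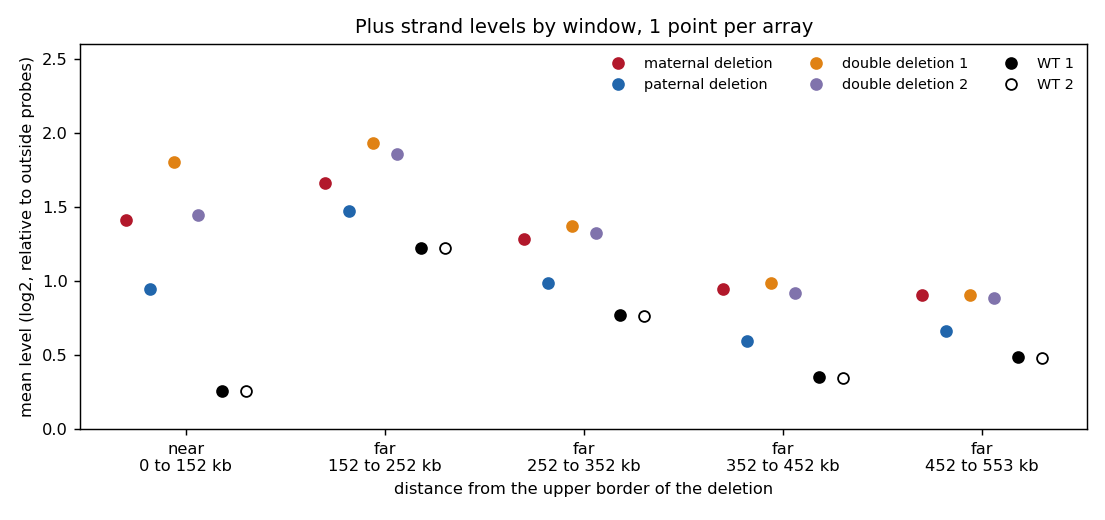
Mean plus-strand level (log2, relative to probes outside the locus) in the near flank and in the 4 windows of the far upper flank, with 1 point per total RNA array. The wild types coincide, and the 4 deletion arrays lie above them in every window, with the smallest separation in the last.

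Within this course there were 2 low points. A first minimum lay at chr7:67420001-67430000, where the differences were 0.06 in the maternal deletion, 0.08 in the paternal deletion, and 0.12 and 0.24 in the double deletions. They were large again at chr7:67450001-67460000, with 0.93, 0.36, 0.96 and 0.81. A second minimum lay at chr7:67660001-67670000, with 0.14, 0.04, 0.06 and 0.17. Both minima were also present on catalogue probes alone, where the change in the double deletions was 0.09 at the first (adjusted p = 0.196 in limma) and 0.10 at the second (adjusted p = 0.313). All other bins passed the threshold with these probes, 38 of 40 against 18.8% of 304 bins. The filter that favours a gain applies to these bins too. Of catalogue members, 57.9% and 56.1% were well above background in the wild types, and 99.2% and 98.2% in the double deletions.

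No end of the gain was found inside the tiled span. The end was defined as the first of 3 consecutive bins that did not exceed the higher wild type, and no deletion array met this before the last probe. In the last bin, which starts at 67690001, the levels were 0.28 in the maternal deletion, -0.07 in the paternal deletion, 0.16 and 0.09 in the double deletions, and -0.27 and -0.28 in the wild types. Its raw medians were 146, 76, 143.5 and 114 on the deletion arrays, and 61.5 and 58 in the wild types. This is the last bin past the threshold in the double deletions, with a rise of 0.41 (adjusted p = 0.0263 in limma), and the difference there was 0.56 in the maternal deletion (adjusted p = 0.0576) and 0.20 in the paternal deletion (adjusted p = 0.176). The last members, 553 kb beyond the deletion border, are part of that bin.

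When a single break was fitted, the mean difference beyond it was lower in the double deletions and the paternal deletion. The fit for the maternal deletion gave the opposite order, which changed with the settings. A single break between 2 means, placed by least squares over the probes, fell at 67640536 in double deletion replicate 1 and at 67640311 in replicate 2. These positions lie 492.8 and 492.6 kb beyond the deletion border, 225 bases apart. The mean difference from wild type was 0.65 before and 0.29 after the break in replicate 1, and 0.58 and 0.29 in replicate 2. In the paternal deletion the break fell at 67637126, with 0.24 before and 0.13 after. The break of the maternal deletion fell at 67437424, with 0.39 before and 0.55 after, although its last window had its smallest difference (0.42). This break moved to 67646907 without wild-type replicate 2 (0.52 before and 0.30 after), to 67637105 with catalogue probes alone (0.70 and 0.40), and to 67325194 with only the probes well above background on every array (0.077 and 0.39). Its place and its direction therefore differ between these settings. The bins on either side of the outer break were chr7:67630001-67640000, with differences of 0.62, 0.25, 0.68 and 0.59 on the deletion arrays, and chr7:67640001-67650000, with 0.41, 0.15, 0.40 and 0.38. Such a break is fitted to any profile, so the positions are descriptions.

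Beyond the tiled span, the nearest plus-strand probes on the array lie at chr7:68472574-68472633 and chr7:68938383-68938442, 771.8 and 1238 kb past its end. Neither was well above background on any total RNA array. The nearer read 39.1 in the maternal deletion, 37.9 in the paternal deletion, 37.2 and 37.4 in the double deletions, and 38.8 and 36.8 in the wild types. The interval between the span and these probes was not sampled on the plus strand.

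The double deletions were also compared with the maternal deletion, which lacks the paternal promoter deletion, as 2 arrays against 1. Over the span the double deletions were 0.07 higher (SE 0.06), and no bin passed the threshold in limma, of the 40 in the span or of all 354 (0%), with 3 of the 40 at an unadjusted p under 0.05. With each double deletion as a group of its own, 5 of the 40 were called higher and none lower, against 8.47% and 18.1% of all bins. These 5 run from chr7:67310001-67320000 to chr7:67350001-67360000 without a gap, and were chosen for mention after their values were seen. The span value was 0.50 when arrays were scaled on all probes. The largest differences lay at the inner end, with 0.37 at chr7:67310001-67320000, 0.34 at chr7:67320001-67330000 and 0.28 at chr7:67330001-67340000 (adjusted p = 0.536 each). There, levels at chr7:67310001-67320000 were 2.17 and 2.09 in the double deletions and 1.76 in the maternal deletion. The lowest were -0.15 in the outermost bin, -0.11 at chr7:67570001-67580000 and -0.09 at chr7:67580001-67590000. By window, the difference was 0.23, 0.06, 0.01 and -0.01 from the inner to the outer end.

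The maternal and the paternal deletion, 1 array each, were also set side by side in a contrast added after the data had been seen. The maternal deletion was higher by 0.27 over the span (SE 0.07), and in 37 of the 40 bins. No bin was called (0% of all bins), and 23 of the 40 had an unadjusted p under 0.05. With each double deletion as a group of its own, 24 of the 40 were called higher and none lower, against 28.8% and 1.13% of all bins. The largest differences were 0.57 at chr7:67450001-67460000, 0.50 at chr7:67440001-67450000 and 0.43 at chr7:67550001-67560000 (adjusted p = 0.149 each). The 3 bins below 0 were chr7:67420001-67430000 at -0.02, and the bright bin chr7:67490001-67500000 and the innermost bin at -0.01 each. This order of the arrays turned round under 2 scalings, with -0.94 over the span when scaled on all probes and -0.20 with quantile normalization.

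The mean of the 3 deletion groups was 0.43 above wild type over the span (SE 0.04). In limma, 31 of the 40 bins were called higher and none lower, where 13.8% of all bins were called higher and 2.26% lower. The count was 0 when arrays were scaled on all probes or on outside probes well above background, and without either wild type. The largest changes were 0.72 at chr7:67450001-67460000, 0.69 at chr7:67440001-67450000 and 0.63 at chr7:67330001-67340000 (adjusted p = 0.0291 each). The smallest differences were 0.10 at chr7:67660001-67670000, 0.11 at chr7:67420001-67430000 and 0.15 at chr7:67670001-67680000.

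The opposite strand of the span showed no such gain with the double deletions pooled. Mean minus-strand level was 1.32 in the maternal deletion, 1.42 in the paternal deletion, 0.98 and 1.57 in the double deletions, and 1.53 and 1.42 in the wild types. The difference from wild type was -0.16 (SE 0.30) in the maternal deletion, -0.06 (SE 0.30) in the paternal deletion and -0.20 (SE 0.25) in the double deletions. No minus-strand bin of the span passed the threshold in any comparison of total RNA, and none had an unadjusted p under 0.05, with the double deletions pooled as 1 group. With each as a group of its own, so that the wild types alone give the spread, 11 of the 40 minus-strand bins were called lower and 1 higher in the double deletions, against 48.6% and 3.39% of all 177 minus-strand bins. The double deletions differed from each other here, with -0.50 in replicate 1 and 0.09 in replicate 2 relative to wild type, while on the plus strand they had 0.59 and 0.54. The standard errors of the pooled fit include this difference, and those of the fit with separate groups do not.

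**Figure D4:**
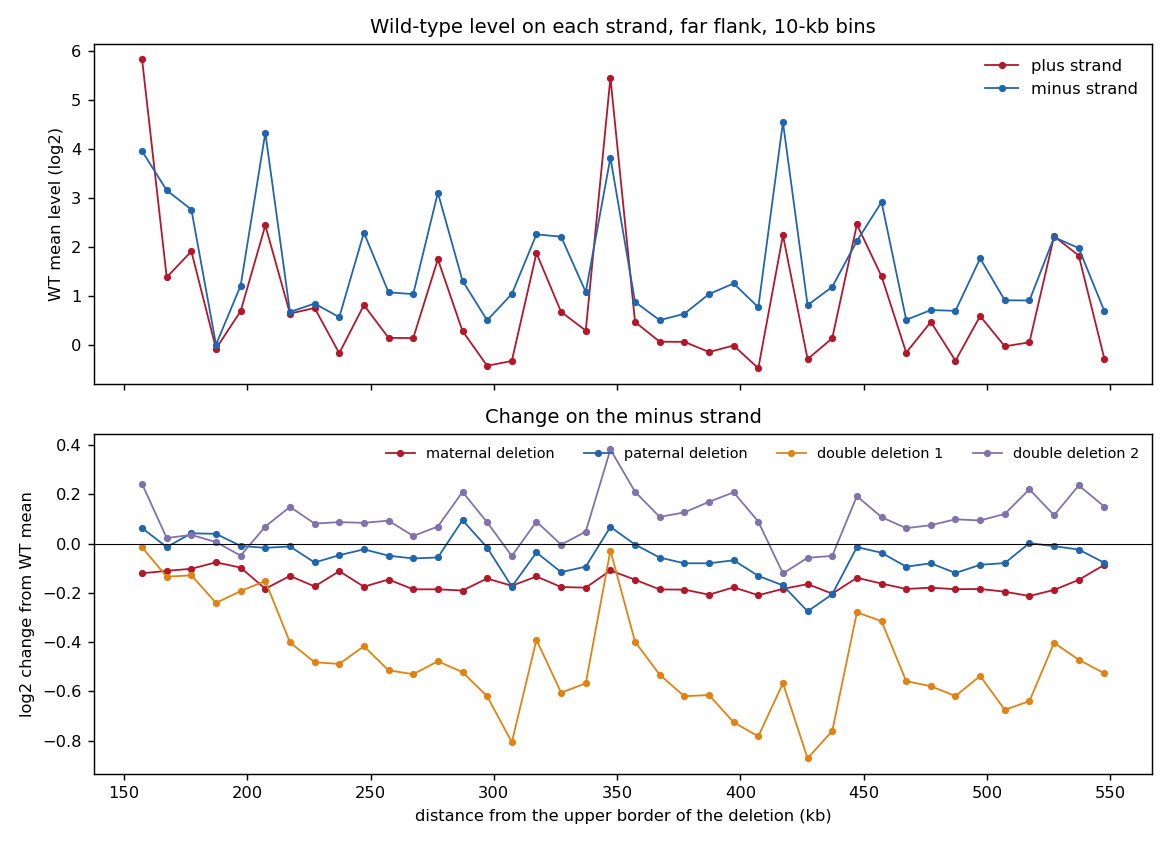
Wild-type mean level (log2) on each strand of the span in 10-kb bins, and below it the change on the minus strand. The change is the difference from the wild-type mean, with 1 line per deletion array. Double deletion replicate 1 lies lowest in most bins.

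PolyA RNA of the wild types was compared with their total RNA on the plus strand of the span. Each level is relative to outside probes of the same array, so the difference does not give the share of signal that is polyadenylated. The median raw intensity of the members was 39 on both polyA arrays over a background of 34, and 68.8 and 65.5 on the total RNA arrays. Between the polyA arrays, 50.7% and 48.0% of members were well above background. On the 3721 members tested here, polyA RNA had a mean level of 1.69 and 1.59, against 1.84 and 1.81 in total RNA, a difference of -0.18 (SE 0.05). In limma, 8 of the 40 bins were called higher in polyA RNA and 13 lower, where 17.2% and 46.3% of all 354 bins were called. The sign of the mean turned under 6 other settings, with values up to 1.16 when arrays were scaled on all probes, so no direction is given for the span as a whole.

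Single bins differed widely between the RNA fractions. The 3 lowest were the bright bins chr7:67490001-67500000, with levels of 4.52 and 4.43 in polyA RNA and 6.44 and 6.34 in total RNA, and the innermost bin, with 4.81 and 4.69 against 6.23 and 6.13, followed by chr7:67680001-67690000. They fell by 1.91, 1.43 and 0.997 (adjusted p = 3.61e-05, 9.83e-05 and 9.83e-05 in limma). The 3 highest were chr7:67580001-67590000, which averaged 1.54 ± 0.05 in polyA RNA and 1.06 ± 0.03 in total RNA (SD, n = 2 each), chr7:67550001-67560000 and the outermost bin. They rose by 0.48, 0.33 and 0.27 (adjusted p = 0.00136, 0.00202 and 0.00389 in limma). Scaling on all probes adds 1.34 to each of these values and scaling on the median of outside probes adds -0.81, so some of them change sign. No polyA RNA of a deletion was analysed here, so the gain was measured in total RNA only.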

How the data were processed

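Cy5-labelled first-strand cDNA was made with random hexamers, from 750 ng of polyA RNA or 15 µg of total RNA, per the labels' protocols. The deposited scanner files hold spot intensity on a linear scale with no normalization between arrays. The software was Agilent Feature Extraction, version 10.7.3.1 per the file headers and 10.9 per the submitters' processing notes. The median red intensity was used, as the labels point to it. The authors' deposited series matrix holds the same intensity of 18408 features times 1 factor per array (0.859 to 1.024 for total RNA, 1.966 and 1.984 for polyA RNA), with no probe outside the locus. The sources used here do not say how the factors were set, and the matrix column medians were 104, 75.4, 76.9, 105.8, 78.7, 77.4, 89 and 86 in the order maternal deletion, paternal deletion, double deletions, polyA RNA and wild types.

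Background was corrected by normexp with an offset of 50 (limma 3.58.1, R 4.3.3). From the log2 values the 75th percentile of the 3338 outside probes was subtracted. Outlier spots were dropped after the correction, and spots of a probe were averaged. Bins needed at least 3 tested probes. Bins and regional means were fitted together with lmFit and eBayes (two-sided, Benjamini-Hochberg), once for the 6 total RNA samples in 4 groups and once for the 4 wild-type samples. The steps were tested on simulated data. Members and lists were chosen with earlier results of these data known. Bins and probes were named by rank: per comparison the 3 bins with the largest and the 3 with the smallest change, the 5 brightest bins, the 6 brightest probes and the 6 with the largest gain. PolyA RNA was purified from the RNA of the wild types with the same numbers, per the series description, so the numbers pair these samples, although the deviations of the pairs correlated weakly over 354 bins (r = 0.083). Alternatives covered scaling, background correction, the filter, bin size, the pooling of the double deletions and leaving out replicates.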

Additional observations from a re-analysis of the deposited data

How the results depend on the processing

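The plus-strand gain kept its direction in the maternal, paternal and double deletions and in their mean under all 18 alternatives run for each, and its size moved most with background correction and scale. Over these alternatives the change ran from 0.37 to 2.03 in the maternal deletion, 0.17 to 1.47 in the paternal deletion, 0.47 to 2.11 in the double deletions and 0.34 to 1.81 in their mean. The maternal value of 2.03 came from plain background subtraction, which has no offset and widens log2 differences of dim probes. The lower quartile of raw intensity of the members was 40 and 39 in the wild types, over a background of 38 and 37. Scaling on all probes, which adds 1.25 to the paternal and 0.47 to the double deletion, gave 1.47 (past the threshold) for the paternal deletion, and 1.03 for the double deletions and 1.01 for the mean (neither past it). For far minus near flank, described without a test, it left -0.80 in the double deletions, as a shift common to both flanks cancels there. It called 40 bins for the paternal deletion and 0 for the double deletions and for the mean. This scale shifts every bin of a comparison by the same amount. The bin counts in this section carry no share over all bins unless it is stated, so they describe the settings and not the span. Scaling on outside probes well above background gave 0.41 for the mean with 0 bins called, and turned double against maternal deletion to -0.0026. Plain background subtraction gave 2.03 and 1.30 for the maternal and the paternal deletion, with 37 and 36 bins called, and -1.26 for far minus near flank in each (-1.265 and -1.257). Quantile normalization called 2 bins for the paternal deletion. Maternal against paternal deletion turned to -0.94 on all probes and to -0.20 with quantile normalization. Bins of 20 kb, 20 in the span, gave 14, 19 and 18 calls for the maternal deletion, the double deletions and the mean, and 10 for polyA RNA.

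With the double deletions as separate groups, the maternal deletion (0.50, 35 bins) and the paternal deletion (0.22, 27 bins) passed the threshold, and far minus near flank was -0.66 and -0.46. The same held without either double deletion, at 0.49 and 0.22 with 35 and 27 bins. Without either wild type, the double deletions gave 0.56 and 0.57, and the mean 0.43, not past the threshold, with 0 bins called, and far minus near flank in the double deletions was -0.81 and -0.80. Over all arrays left out in turn, the maternal deletion ranged from 0.49 to 0.50 (0 to 35 bins), the paternal deletion from 0.22 to 0.23 (0 to 27 bins), the double deletions from 0.54 to 0.59 (0 to 39 bins) and the mean from 0.42 to 0.44 (0 to 36 bins). Far minus near flank ranged from -0.66 to -0.65 in the maternal deletion, -0.47 to -0.46 in the paternal deletion and -0.96 to -0.65 in the double deletions. Among alternatives chosen after seeing the data, catalogue probes alone gave 0.65 with 30 bins for the maternal deletion, and custom probes alone gave -0.68 for far minus near flank in the double deletions. The series matrix on the authors' own factors gave 0.84 for the maternal deletion. Its planned form on outside probes was not run, since the matrix holds none. The gain had no end inside the span on any deletion array under 12 alternatives. With all 40 bins above both wild types in the main setting, the alternatives of 2 or 5 bins in a row could not find one. Where the changes in calls come from was not tested.

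The polyA difference of -0.18 turned to 1.16 on all probes, 0.21 on outside probes well above background, 0.32 with quantile normalization, 0.52 with background subtraction, 0.27 with no filter and 0.30 on catalogue probes. It lost its call at -0.012 without background correction and at -0.16 without saturated probes. With a replicate left out it ranged from -0.23 to -0.12, and it lost its call without either wild type and without polyA replicate 2 (-0.14, -0.14 and -0.12). Bins called, higher and lower together, numbered 39 on all probes, 40 on the median of outside probes, 32 with background subtraction, 34 with no filter and 37 on catalogue probes. These counts carry no share over all bins, so they describe the settings and not the span. With the replicate pairing as a block, the difference was -0.18 and 28 bins were called. Of these, 11 were higher and 17 lower, against 82 and 186 of all 354 bins. The block also brought the second and the third window (-0.15 and -0.11) past the threshold.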
